A study of Mus musculus with 13 samples.

Results

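The comparison of quadriceps muscle labelled SKM-KO with muscle labelled C was made on 6 of the 13 arrays of the series, 3 per group, chosen by the group label alone. The study asked how loss and gain of DOR, now named Trp53inp2, alter gene expression in skeletal muscle, and SKM-KO was read as the ablation because the design names one. All mice were male C57Bl/6 animals aged 4 months, fed standard chow, and each array title carries its own animal number. The labels leave the group names unexplained, so the promoter behind any recombination, the deleted part of the gene and the alleles that C carries are not known here, and the pairing of C with SKM-KO rests on the naming. The other arrays, labelled Wt (n = 3) and SKM-Tg (n = 4), are given beside some results as levels only.

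TP53INP2 is a small protein that shuttles between nucleus and cytoplasm. In the cytoplasm it binds LC3 and GABARAP family proteins and takes part in autophagosome formation, and in the nucleus it acts as a coactivator of nuclear receptors, including the thyroid hormone receptor. Autophagy delivers cytoplasm and organelles to the lysosome, and in muscle it removes protein and mitochondria during fasting and wasting.

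Signals are log2 values, so that 1 unit is a doubling, and each difference is SKM-KO minus C. Each gene is read through its brightest probe set, and 10411 genes bright enough to be tested entered the fit in limma. Levels of different genes cannot be set against each other, because probe sets differ in brightness. Arrays have no read depth; the 3 arrays per group limit the precision. The median standard error of a difference (SE) was 0.085, and for 95.5% of genes the unadjusted 95% interval lay within 1.5-fold of no difference on either side.

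The 6 arrays correlated at 0.986 to 0.995, and their main axis of variation, with 45.1% of the variance, did not separate the groups. C 1 and SKM-KO 1 lay at its low end, at -16.6 and -8.51, and the other arrays lay between 2.93 and 10.6. C 1 was the farthest array from the rest for 2985 genes. Snd1, a nuclease and transcriptional coactivator, read 6.11 in C 1 and 8.90 to 9.07 in the other 5 arrays. Its difference of 0.99 became 0.03 without C 1. SKM-KO 2 stood apart in some fat cell genes: Adipoq, the adipocyte hormone adiponectin, read 8.20 there and 4.49 to 5.56 elsewhere. The fat cell markers Scd1 and Retn were also highest in SKM-KO 2, but Fabp4 and Car3 were highest in C 1.

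The loss of Trp53inp2 signal was the 1 change that passed the threshold. Its single probe set read 11.06, 11.19 and 11.15 in the C arrays and 8.58, 8.79 and 8.99 in the SKM-KO arrays. The groups lay far apart, and the spread within SKM-KO (SD 0.21, n = 3) was wider than within C (SD 0.06, n = 3). Trp53inp2 fell by 2.35 on the log2 scale (SE 0.11, 95% interval -2.60 to -2.09), which is 5.08-fold, with a limma adjusted p of 0.000903. Leaving out any 1 array kept the call, with differences from -2.45 to -2.24 and adjusted p-values from 0.00124 to 0.0264. Wt arrays read 11.00 to 11.46 and SKM-Tg arrays averaged 11.17, both near the level in C. The position of the probe set relative to the deleted sequence is not given, so what the remaining signal stands for was not tested. In bulk tissue, fewer cells of a type and less RNA per cell cannot be told apart.

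**Figure D1:**
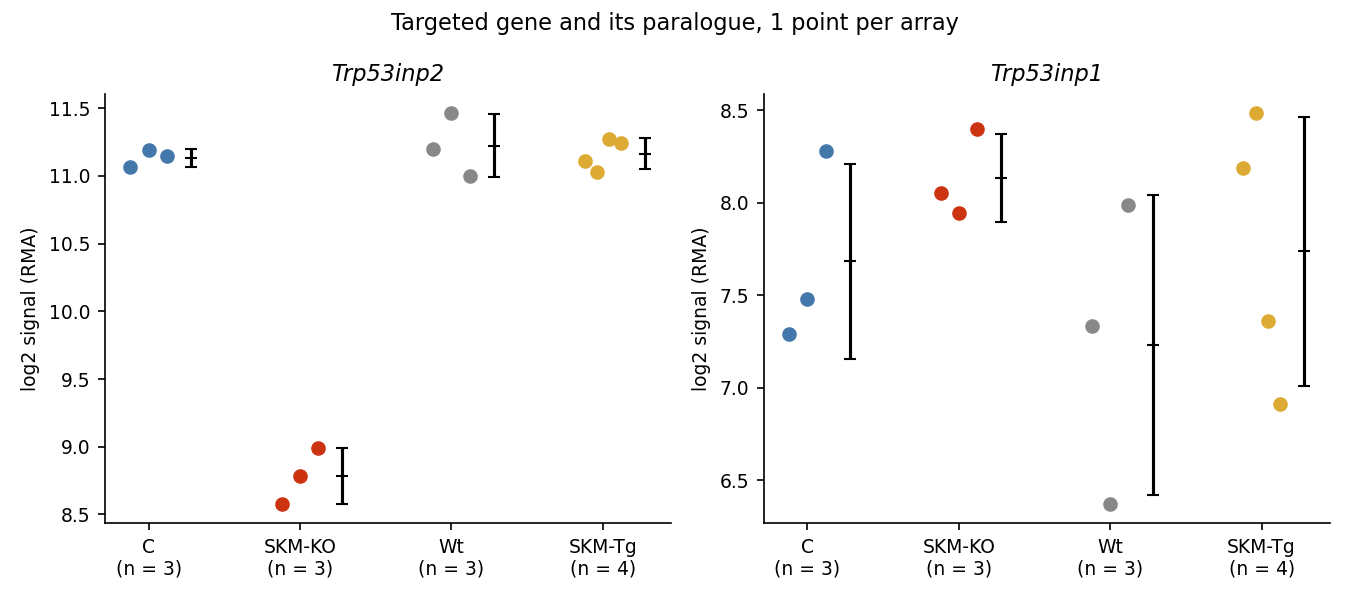
Log2 signal of Trp53inp2 (left) and its paralogue Trp53inp1 (right) on each array of the 4 groups, with the mean and SD beside the points. The 3 SKM-KO arrays sit between 8.58 and 8.99 for Trp53inp2, below every other array, while for Trp53inp1 the groups overlap.

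The sequence before the start of Trp53inp2 is shown because this is the targeted gene, and that of Peg3 because it and its neighbour Usp29, both among the 15 named genes on the higher side, start close together. Both are the 250 bases before the annotated start in RefSeq, build GRCm38.p6: Trp53inp2 at chr2:155381606-155381855 on the plus strand, and Peg3 at chr7:6730420-6730669 on the minus strand. Capitals mark the palindrome TGACGTCA, the consensus cAMP response element, searched on both strands.
Trp53inp2: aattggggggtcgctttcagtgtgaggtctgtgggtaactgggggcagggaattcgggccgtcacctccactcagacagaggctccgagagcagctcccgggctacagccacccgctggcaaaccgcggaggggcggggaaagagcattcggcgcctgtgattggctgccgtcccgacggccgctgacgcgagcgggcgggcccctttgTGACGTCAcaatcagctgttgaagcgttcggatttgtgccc
Peg3: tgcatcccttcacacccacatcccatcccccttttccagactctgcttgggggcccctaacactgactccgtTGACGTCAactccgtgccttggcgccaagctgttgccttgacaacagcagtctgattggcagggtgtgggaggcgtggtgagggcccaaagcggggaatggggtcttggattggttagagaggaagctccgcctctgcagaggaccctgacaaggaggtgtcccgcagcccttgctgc
The element begins 41 bases before the Trp53inp2 start and 178 bases before the Peg3 start. Peg3 and Usp29 are transcribed in opposite directions from nearby starts, so that windows of 250 bases before and 50 after each start share 263 bases, and the same element lies 8 bases into the Usp29 transcript. Among all 32851 such windows in the table, 1.79% hold the element, and among tested genes with a window 297 of 8405 (3.53%) do. Of the genes named below, 3 of 12 on the higher side with a window hold it (Gpm6b, Usp29 and Peg3) and 1 of 12 on the lower side (Trp53inp2). A match is a description of the letters and no evidence of binding.

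Genes beside Trp53inp2 on chromosome 2 gave small differences. Among the 10 tested genes on either side, 12 of 20 were positive and 8 negative, from -0.12 to 0.15 with a median of 0.02, and 0 had an unadjusted p below 0.05, against 2.74% of all genes tested. The groups did not overlap for 2 of them, both lower, against 7.49% of all genes (2.83% lower). One was Map1lc3a, which encodes the LC3A protein that TP53INP2 binds and lies close to Trp53inp2, at 11.85, 11.80 and 11.84 in C and 11.80, 11.78 and 11.76 in SKM-KO. Its difference was -0.05 (SE 0.06). The other was Dynlrb1, a dynein light chain, at -0.12 (SE 0.06).

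The paralogue Trp53inp1, induced by p53 and also able to bind LC3 proteins, read 7.29, 7.48 and 8.28 in C and 8.05, 7.94 and 8.40 in SKM-KO. The groups overlapped through C 3. The difference was 0.45 (SE 0.26, unadjusted p 0.122), or 0.25 without C 1 and 0.75 without C 3, and its other probe set gave 0.27. Its interval ran from -0.15 to 1.05, which leaves a wide range of sizes possible.

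Across all 10411 genes, limma called Trp53inp2 lower (0.00961%) and 0 genes higher, and the next smallest adjusted p was 0.999941. At an unadjusted p below 0.05 there were 188 genes higher (1.81%) and 97 lower (0.932%). All SKM-KO arrays lay above all C arrays for 485 genes (4.66%) and below for 295 (2.83%). The balance of directions depends on the scaling, since the median difference over genes was 0.0077 and centring each array on its median gave 134 higher and 160 lower at p below 0.05, and 330 above and 538 below without overlap. Leaving out SKM-KO 1 gave 329 higher and 247 lower at p below 0.05, and leaving out SKM-KO 2 gave 123 and 108. A fit of all 13 arrays, whose spread includes the other groups, gave 28 and 30. Differences beyond 1.5-fold were positive for 6 genes and negative for 9.

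**Figure D2:**
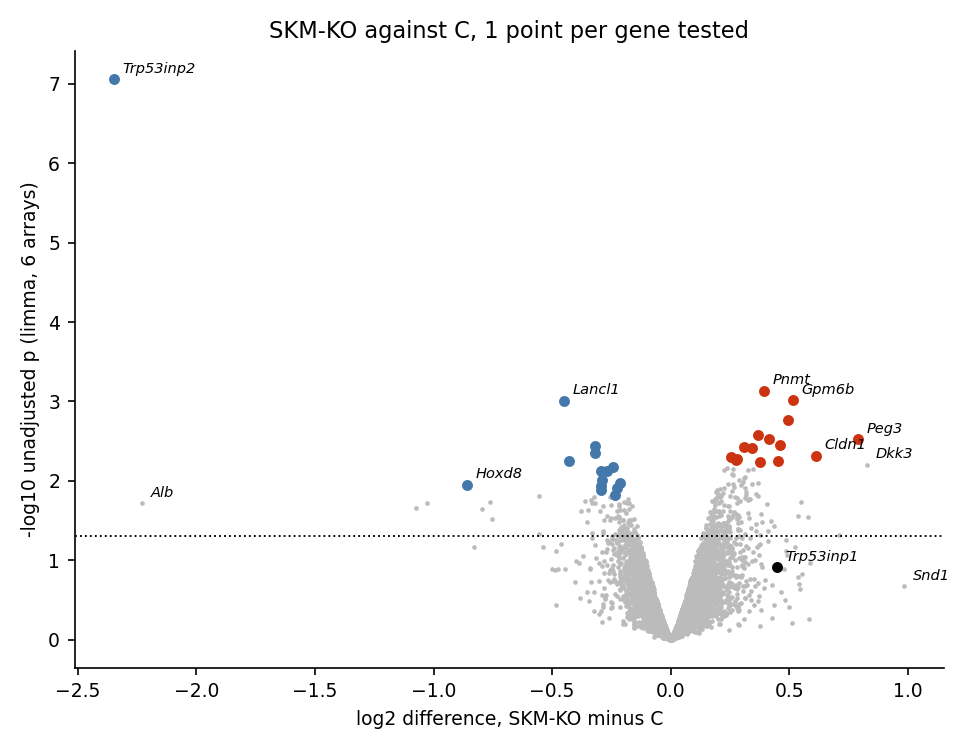
Log2 difference (SKM-KO minus C, horizontal) against -log10 of the unadjusted limma p (vertical) for the 10411 genes tested; the dotted line marks the unadjusted threshold, red and blue points are the 15 genes with the smallest p on each side, and the black point is Trp53inp1. Trp53inp2 stands alone at -2.35, and Alb lies nearly as far to the left at -2.23 with a much larger p.

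The genes named next had the smallest p-values in each direction, and none except Trp53inp2 passed the threshold. Their differences chose them and are given as a description. On the higher side, Peg3 and Usp29 form an imprinted pair: Peg3 encodes a zinc finger protein expressed from the paternal copy, and Usp29 a deubiquitinase. Peg3 read 7.38, 7.29 and 7.999 in C and 8.37, 8.25 and 8.42 in SKM-KO. All SKM-KO arrays were above all C arrays, though Wt arrays ran from 5.33 to 8.51, on both sides of them. The difference was 0.79 (SE 0.18), and the second probe set of Peg3 gave 0.85. Usp29 read 4.96, 4.80 and 5.04 in C and 5.37, 5.25 and 5.28 in SKM-KO, close to the filter on dim genes, and differed by 0.37 (SE 0.08). Its Wt arrays, at 5.13 to 5.29, overlapped SKM-KO and lay above C. The second probe set of Usp29, below the filter, gave 0.01. Zim1, the imprinted gene on the other side of Peg3, differed by 0.29 (SE 0.12), while Zfp28 beyond it differed by 0.07.

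Impact, an imprinted inhibitor of the kinase GCN2, read 5.10, 5.09 and 5.37 in C and 5.58, 5.81 and 5.55 in SKM-KO. Again the groups did not overlap, and the difference was 0.46 (SE 0.11). Over 15 tested imprinted genes, a group chosen after these values were seen, 9 were positive and 6 negative with a median of 0.09, and 5 were higher at an unadjusted p below 0.05 and 0 lower, against 1.81% of all genes higher and 0.932% lower. The fifth besides Peg3, Usp29, Impact and Zim1 was Snrpn, a splicing protein gene, at 0.19. Igf2, the paternally expressed growth factor, stood at -0.12, and the maternally expressed noncoding RNA Meg3 at -0.09, or 0.03 without C 1.

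Others on the higher side belong to diverse functions. Pnmt, the enzyme that makes adrenaline from noradrenaline, had the smallest p after Trp53inp2. It read 5.38, 5.24 and 5.23 in C and 5.61, 5.72 and 5.70 in SKM-KO, a difference of 0.39 (SE 0.07). The groups were apart, but Wt arrays read 5.62 to 6.66, at or above SKM-KO. Prkcd, a diacylglycerol-activated protein kinase, read 5.46, 5.68 and 5.56 in C and 5.89, 6.23 and 6.07 in SKM-KO, a difference of 0.50 (SE 0.10). Here too the Wt arrays, at 5.93 to 6.85, lay with or above SKM-KO.

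Cldn1, a tight junction protein, read 6.09, 5.85 and 5.76 in C and 6.84, 6.40 and 6.31 in SKM-KO. With a difference of 0.61 (SE 0.15) it was among the 6 genes beyond 1.5-fold. Its Wt arrays, at 6.33 to 6.73, lay with SKM-KO and above C. Hoxc8, a homeobox factor, differed by 0.45, and Net1, an exchange factor for RhoA, by 0.42. The remaining differences were 0.38 for Fxyd3, a regulator of the sodium pump, 0.34 for Apod, a lipid-binding apolipoprotein, and 0.31 for Maml1, a Notch coactivator. Thap8, Vwa7 and Rab9, the last a GTPase of transport between endosomes and Golgi, stood at 0.28, 0.27 and 0.26.

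On the lower side, Lancl1, a glutathione-binding protein, followed Trp53inp2. It read 8.45, 8.44 and 8.52 in C and 7.89, 8.17 and 8.01 in SKM-KO, with tight controls and no overlap. The difference was -0.45 (SE 0.08), and its second probe set, below the filter, gave -0.05. Hoxd8, a homeobox factor of limb and trunk patterning, read 6.90, 6.41 and 6.23 in C and 5.65, 6.11 and 5.20 in SKM-KO. Both groups were spread widely yet did not overlap, and the difference was -0.86 (SE 0.25), with -0.35 at its second probe set. Its Wt arrays, at 5.61 to 6.13, overlapped SKM-KO and lay below C. Among the named lower genes, the Wt range overlapped SKM-KO alone for 4 (Hoxd8, Rfxap, Uggt2 and 2310047D07Rik). It overlapped C alone for 5, among them Trp53inp2 and Lancl1, and both groups for 6. Whether SKM-KO was low or C high for Hoxd8 was not tested.

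Arg1, the cytosolic arginase of the urea cycle, read 5.31, 5.42 and 5.13 in C and 5.05, 4.80 and 4.73 in SKM-KO. It lay close to the filter on dim genes and differed by -0.43 (SE 0.11). Its arrays ranked in the same order as those of Alb, a plasma protein gene described below, and a shared source was not tested. The replication-dependent histone H3c11 differed by -0.32 (SE 0.08). Rfxap, part of the complex that drives MHC class II genes, also stood at -0.32, but its other probe set gave 0.09. Pop1, a subunit of RNase P, and Ppil3, a cyclophilin of the spliceosome, stood at -0.30 each. Ccl27a, a chemokine, and Lca5l stood at -0.29, and the dynein adaptor Bicd2 at -0.27. Values for Uggt2, a folding sensor of the endoplasmic reticulum, L3mbtl3, a reader of methylated lysine, 2310047D07Rik and Phf7 ran from -0.24 to -0.21. Of all 31 genes named with Trp53inp1, 10 had several probe sets above the filter. These had 1 sign in 7 and both signs in 3 (Rfxap, Ccl27a and Bicd2). Further such probe sets gave 0.05, -0.04 and -0.23 for Ccl27a and -0.07, -0.11 and 0.02 for Bicd2. Those of Prkcd, Maml1 and Ppil3 gave 0.13, 0.09 and -0.04 with overlapping groups, while those of Phf7 gave -0.15 and -0.32 without overlap.

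**Figure D3:**
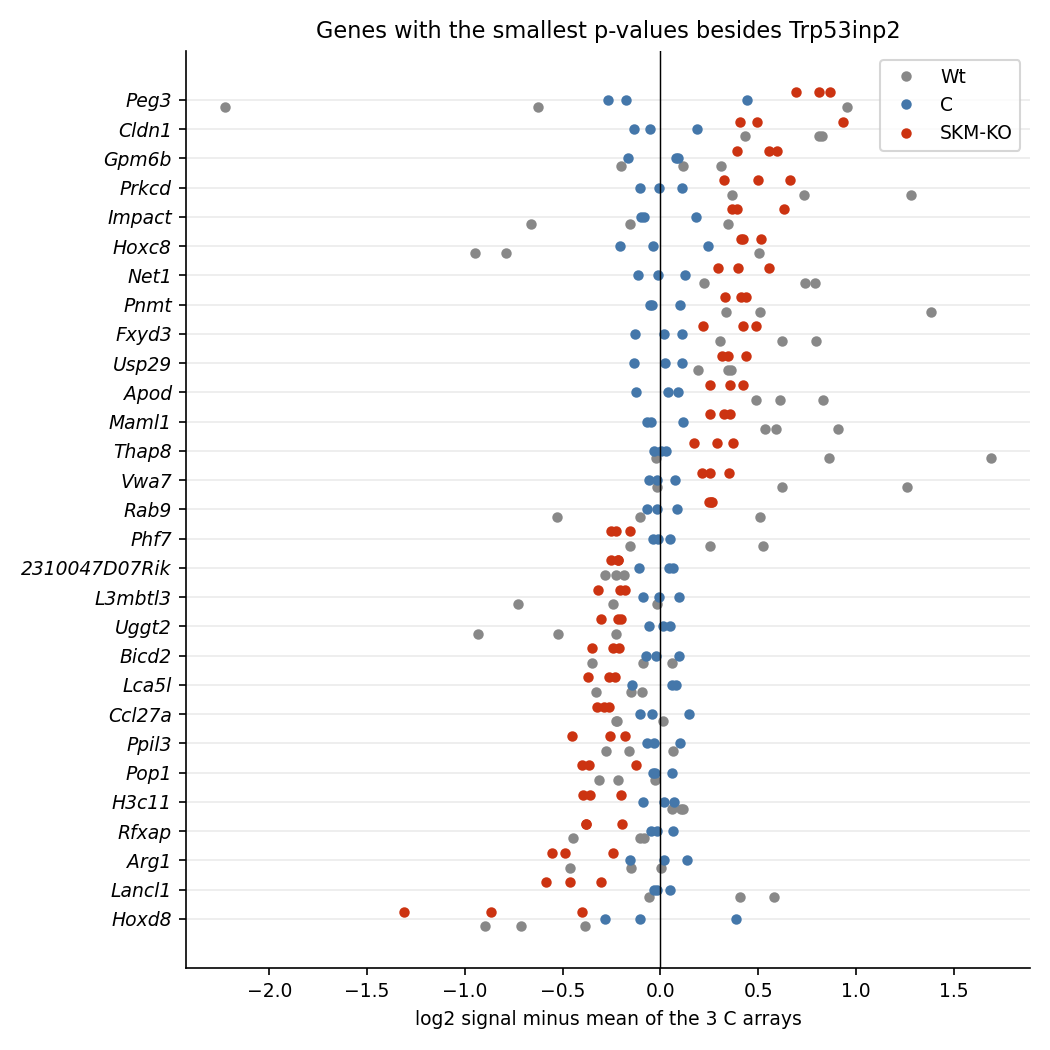
Log2 signal on each SKM-KO, C and Wt array relative to the mean of the 3 C arrays, for the 15 higher genes with the smallest p and the 14 lower genes besides Trp53inp2. The SKM-KO points lie to one side of all C points for every gene shown, since small p-values chose them, and the Wt points fall on either side.

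Wdfy1, an endosomal protein that binds phosphatidylinositol 3-phosphate, was singled out after its values were seen, because its probe sets differ in size of effect. Its brightest probe set, which stands for the gene in the fit, gave 0.18 (SE 0.07). A dimmer probe set read 5.51, 5.84 and 5.83 in C and 6.95, 7.20 and 7.10 in SKM-KO, a difference of 1.36 with a limma adjusted p of 0.0568 over all probe sets. A further 2 gave 1.31 and 0.82, so that the groups were apart at all 4. Wt arrays read 6.80 to 7.54 at that dimmer probe set, like SKM-KO and above C. With all probe sets of each gene averaged in place of the brightest, Wdfy1 was called higher (0.92, limma adjusted p 0.0415).

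Dkk3, a secreted member of the Dickkopf proteins, had the largest positive difference among genes whose groups did not overlap. It read 6.04, 5.16 and 5.85 in C and 6.56, 6.35 and 6.64 in SKM-KO, a difference of 0.83 (SE 0.22). Of 21 tested members of the Wnt list, 8 were positive and 13 negative with a median of -0.03, which became 0.01 without C 2 and -0.01 without SKM-KO 1. At an unadjusted p below 0.05, 3 of them were higher and 0 lower, against 1.81% of all genes higher and 0.932% lower. Besides Dkk3 these were Wls, which carries Wnt proteins to the cell surface, at 0.20, and the Wnt receptor Fzd4 at 0.22.

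Pathway lists were then read by the number of members in each direction, beside 54% of all tested genes with a positive difference and a median of 0.0077 over all. Counts at an unadjusted p below 0.05 stand beside 1.81% of all genes higher and 0.932% lower. Over all genes, limma called 0 members of these lists. For autophagosome formation, 20 of 29 tested members were positive and 9 negative, with a median of 0.07 and 0 at an unadjusted p below 0.05. With 1 array left out the median ran from 0.02, without C 1, to 0.07. Pik3c3, the lipid kinase that starts the phagophore, read 5.91, 5.78 and 5.87 in C and 5.96, 6.13 and 5.97 in SKM-KO. All SKM-KO arrays were above C, by a small margin, and the difference was 0.16 (SE 0.07). Its partner Becn1 differed by 0.10, the membrane scramblase Atg9a by 0.10 and the conjugation factor Atg5 by 0.11.

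Autophagy receptors and mitophagy genes were positive in 15 of 20 and negative in 5, with a median of 0.04 (0.02 to 0.06 with 1 array left out) and 0 at p below 0.05. The mitochondrial receptors Bnip3, Bnip3l and Bcl2l13 stood at 0.13, 0.09 and 0.08, and Bnip3 at 0.02 without C 1. For lysosomal hydrolases and membrane proteins, 30 of 34 were positive and 4 negative, with a median of 0.09 and again 0 at p below 0.05. The median ran from 0.06, without SKM-KO 3, to 0.12 with 1 array left out. Man2b1, a mannosidase, read 8.06, 8.03 and 7.98 in C and 8.09, 8.16 and 8.26 in SKM-KO, and differed by 0.15 (SE 0.07). Ctsz, a cathepsin, stood at 0.17, and the cholesterol carrier Npc2 at 0.16, with overlapping groups.

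Macrophages are rich in lysosomes, and their markers lay in the same direction: 11 of 11 tested markers were positive, with a median of 0.20 and 0 at p below 0.05. Without C 3 the median was 0.07, and without C 2 0.29. Their mean signal was 6.01 to 6.43 in C and 6.38 to 6.60 in SKM-KO, overlapping, with C 3 the lowest. The part of these cells in the lysosomal values was not tested. The vacuolar proton pump, which acidifies the lysosome, was positive in 8 of 14 and negative in 6. Its median of 0.01 turned to -0.02 with median centring and ran from -0.03 to 0.04 with 1 array left out. The subunit Atp6v0e had the smallest p among them, at 0.17 (SE 0.08).

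Among genes of muscle atrophy and FoxO signalling, 16 of 21 were positive and 5 negative, with a median of 0.08, or 0.04 without C 1 and 0.14 without C 3. Foxo1, the transcription factor that drives ubiquitin ligases and autophagy genes in wasting muscle, read 6.29, 6.44 and 6.47 in C and 6.78, 6.51 and 6.62 in SKM-KO. It was the 1 member at an unadjusted p below 0.05, with groups just apart and a difference of 0.24 (SE 0.09). Foxo3 stood at 0.22, the muscle ligase Trim63 at 0.21, and Sesn1, a stress-induced inhibitor of mTORC1, at 0.49. For these 3, C 1 had the lowest signal and the groups overlapped. Without C 1 Foxo3 stood at 0.12, Trim63 at 0.11 and Sesn1 at 0.21.

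The glucocorticoid targets had the highest median of all 29 lists, 0.14, with 18 of 19 positive and 1 negative. Fkbp5, a co-chaperone induced by the glucocorticoid receptor, read 8.81, 9.39 and 9.63 in C and 9.84, 9.73 and 9.86 in SKM-KO, a difference of 0.53 (SE 0.19), or 0.30 without C 1. It was the 1 member at p below 0.05. Over the tested members the mean signal was 8.78 in C 1, 9.12 in C 2 and 9.29 in C 3, against 9.16 to 9.38 in SKM-KO. The groups overlapped through C 3, and the median ran from 0.04 without C 1 to 0.29 without C 3.

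Ubiquitin ligases and deubiquitinases were positive in 24 of 34 and negative in 10, with a median of 0.03 (0.01 to 0.06 with 1 array left out), and 4 were higher and 1 lower at p below 0.05, against 1.81% of all genes higher and 0.932% lower. Apart from Usp29 these were the ubiquitin chain elongation factor Ube4a at 0.35 (SE 0.09), the sodium channel ligase Nedd4l at 0.31 (SE 0.09), Fbxl4, an F-box protein of mitochondria, at 0.31 (SE 0.10), and the conjugating enzyme Ube2j1 at -0.15 (SE 0.06). Proteasome subunits gave 19 of 30 positive and 11 negative, with a median of 0.02 that turned to -0.01 under median centring and ran from -0.02 to 0.05 with 1 array left out. Their differences kept within -0.05 and 0.08.

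Nuclear receptors and their coregulators, among which TP53INP2 acts, were positive in 17 of 28 and negative in 11, with a median of 0.02 that turned negative under median centring (-0.01), without C 1 (-0.02) and without SKM-KO 3 (-0.0022). No member had p below 0.05. Nr1d2, a clock repressor, stood at -0.15 and Nr4a3 at 0.31. For thyroid hormone response genes, 9 of 12 were positive and 3 negative, with a median of 0.03 (0.01 to 0.03 with 1 array left out) and 0 at p below 0.05. Dio2, the deiodinase that makes active thyroid hormone, read 5.99, 5.83 and 5.76 in C and 5.84, 6.18 and 6.05 in SKM-KO. The groups overlapped, and the difference was 0.16 (SE 0.11), or 0.08 without SKM-KO 2.

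Subunits of the respiratory chain differed least among themselves of all 29 lists (SD over members 0.022). Of 51 tested genes of the chain and the ATP synthase, 13 were positive and 38 negative, from -0.07 to 0.04 with a median of -0.01 (-0.02 to 0.01 with 1 array left out). Atp5pb, of the ATP synthase stalk, read 11.28, 11.28 and 11.29 in C and 11.22, 11.21 and 11.21 in SKM-KO. Its groups were apart by a difference of only -0.07 (SE 0.05). Mitochondrial ribosomal proteins were positive in 9 of 34 and negative in 25, with a median of -0.04 that ran from -0.06 without C 1 to 0.0014 without SKM-KO 1. Pyruvate entry and the citric acid cycle split into 13 positive and 11 negative members, with a median of 0.01. That median turned to -0.02 under median centring and ran from -0.02 to 0.02 with 1 array left out.

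Fatty acid uptake and oxidation was positive in 27 of 31 and negative in 4, with a median of 0.04, or 0.0035 without C 1, and at most 0.06 with another array left out. Plin5, which ties lipid droplets to mitochondria, read 10.31, 10.52 and 10.58 in C and 10.73, 10.61 and 10.75 in SKM-KO. It was the 1 member at p below 0.05, at 0.23 (SE 0.09) with groups just apart. Acot1, a thioesterase, stood at 0.37 and the dehydrogenase Acadl at 0.11. Without C 1 these 3 stood at 0.15, 0.20 and 0.07. Fat cell markers, 5 tested, had a mean signal of 8.38 to 8.93 in C and of 8.40, 10.01 and 8.25 in SKM-KO 1, 2 and 3. Their median of 0.43 was -0.09 without SKM-KO 2, and their part in the fatty acid genes was not tested.

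Glycolysis and glycogen genes were positive in 8 of 27 and negative in 19, with a median of -0.01 (-0.08 without SKM-KO 2). Fbp2, the muscle fructose bisphosphatase, read 9.58, 8.71 and 8.85 in C and 8.36, 8.88 and 8.29 in SKM-KO, and differed by -0.54 (SE 0.25) with overlapping groups, or by -0.27 without C 1. Ppp1r3c, which targets a phosphatase to glycogen, read 8.75, 9.66 and 9.61 in C and 9.69, 9.81 and 10.10 in SKM-KO. It stood at 0.52 (SE 0.24), with C 1 far below the rest, and at 0.23 without C 1. In insulin signalling and glucose transport 14 of 25 were positive and 11 negative, with a median of 0.05 that turned to -0.04 without C 1 and -0.02 without SKM-KO 3. Pik3r1, the regulatory subunit of phosphoinositide 3-kinase, read 9.03, 9.06 and 9.01 in C and 9.53, 9.13 and 9.44 in SKM-KO. Its controls were tight and its difference was 0.33 (SE 0.11), the 1 member at p below 0.05.

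Among the contractile proteins, fast and slow sarcomere genes were positive in 22 of 31 and negative in 9, with a median of 0.04, or 0.0149 without C 1 and 0.0150 without C 3. Myl10, a regulatory myosin light chain, read 5.58, 6.04 and 5.69 in C and 6.19, 6.10 and 6.14 in SKM-KO. It differed by 0.37 (SE 0.12) and was the 1 member at p below 0.05. The 10 tested markers of the skeletal muscle fibre, which check the labelled tissue, were bright on all arrays, with a mean signal of 12.39 to 12.48. They split into 5 positive and 5 negative with a median of -0.01 (-0.02 to 0.02 with 1 array left out). Calcium release and uptake genes were positive in 9 of 21 and negative in 12, with a median of -0.01 (-0.02 to 0.02 with 1 array left out).

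Myogenic factors and growth signals were positive in 10 of 25 and negative in 15, with a median of -0.03 that ran from -0.07 to 0.01 with 1 array left out. At p below 0.05, 0 were higher and 2 lower, Hoxd8 and Myf6, against 1.81% of all genes higher and 0.932% lower. Myf6, the myogenic factor most abundant in adult fibres, read 10.33, 10.35 and 10.33 in C and 9.82, 10.23 and 10.06 in SKM-KO. The C arrays were nearly identical and all SKM-KO arrays lower, with a difference of -0.30 (SE 0.10), or -0.19 without SKM-KO 1. Its relatives Myog and Myod1 stood at -0.21 (SE 0.09) and -0.46 (SE 0.21), with C and SKM-KO overlapping for Myod1 alone. Without C 1 Myod1 stood at -0.24, and without C 2 Myog at -0.12.

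At the neuromuscular junction, 11 of 16 tested genes were positive and 5 negative, with a median of 0.04, and 3 were higher at p below 0.05 and 0 lower, against 1.81% of all genes higher and 0.932% lower. The median ran from 0.0059 without SKM-KO 3 to 0.09 without SKM-KO 2. Etv5, a transcription factor of synaptic nuclei, read 5.30, 5.53 and 5.35 in C and 5.63, 5.96 and 5.70 in SKM-KO, a difference of 0.37 (SE 0.11). Ache, the acetylcholinesterase, read 5.93, 5.82 and 5.81 in C and 6.04, 6.05 and 6.09 in SKM-KO, a difference of 0.21 (SE 0.06). Both genes had groups that did not overlap. Kcna1, a potassium channel of axons, stood at 0.36 (SE 0.14), and the adult acetylcholine receptor subunit Chrne at 0.22 (SE 0.11), or 0.20 and 0.13 without C 1.

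Nerve and Schwann cell markers differed in the same direction as these. All 6 tested of 8 measured were positive, with a median of 0.33 (0.23 to 0.43 with 1 array left out), and 4 were higher at p below 0.05, against 1.81% of all genes. Gpm6b, a proteolipid of neurons and glia, read 5.79, 6.04 and 6.05 in C and 6.35, 6.56 and 6.51 in SKM-KO, a difference of 0.51 (SE 0.10). Its other probe sets, both below the filter, gave 0.27 and -0.02 with overlapping groups. Pmp22, a peripheral myelin protein, read 8.21, 8.29 and 8.15 in C and 8.70, 8.52 and 8.42 in SKM-KO, a difference of 0.33 (SE 0.09). The groups were apart for Pmp22 and for the brightest probe set of Gpm6b, whereas Mbp, the myelin basic protein, overlapped through SKM-KO 3. It read 7.27, 7.50 and 7.34 in C and 8.38, 8.001 and 7.47 in SKM-KO, a difference of 0.58 (SE 0.21), or 0.36 without SKM-KO 1. Over the list, the mean signal was 6.52 to 6.59 in C and 7.06, 6.89 and 6.71 in SKM-KO 1, 2 and 3. The mean of the Wt arrays lay above that of SKM-KO for Mbp (8.21 against 7.95) and Pmp22 (8.62 against 8.55). It also lay above for Sox10 (5.02 against 4.89) and Cnp. For Gpm6b and Mal the Wt means, 6.03 and 7.04, lay near the C means of 5.96 and 6.99. Whether SKM-KO was high or C low for these markers was not tested. The part of nerve tissue in the junction values was not tested.

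Plasma proteins made mainly by the liver held 5 of the 9 lower differences beyond 1.5-fold. Of 7 tested, 6 were negative and 1 positive, with a median of -0.76, and 5 were lower at p below 0.05, against 0.932% of all genes. Alb, serum albumin, read 7.22, 8.67 and 5.37 in C and 5.33, 4.72 and 4.53 in SKM-KO. C 2 was the highest by far, and C 3 lay just above SKM-KO 1. The difference was -2.23 (SE 0.74), or -1.43 without C 2. Apoa1 stood at -1.03, Apoc3 at -0.80, Ttr at -0.76 and Apoa2 at -0.75, each highest in C 2, and the liver enzyme Bhmt at -1.07. Without C 2 the list median was -0.48, with Apoa1 at -0.62, Apoc3 at -0.50, Ttr at -0.48 and Apoa2 at -0.40. The list's mean signal was 6.12, 6.80 and 5.50 in C 1, 2 and 3 and 5.21 to 5.49 in SKM-KO. A further gene lower by more than 1.5-fold was Tmem100, a membrane protein of endothelium and sensory neurons, at -0.83 with overlapping groups, or -0.43 without C 1.

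**Figure D4:**
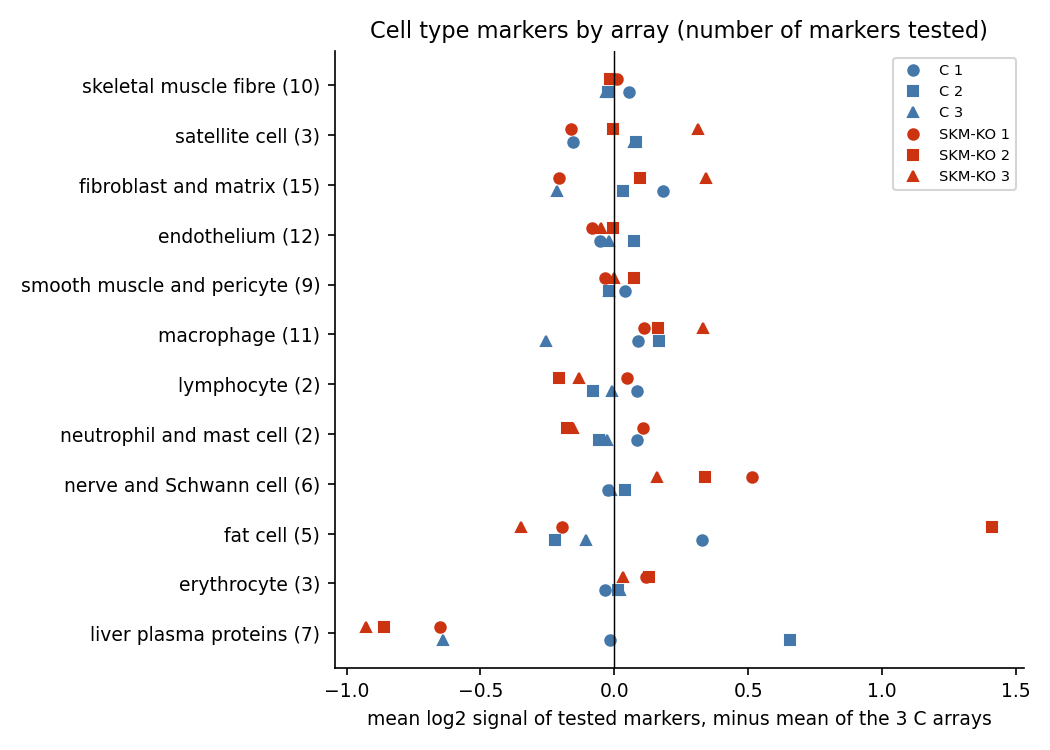
Mean log2 signal of the tested markers of each cell type on each of the 6 arrays, relative to the mean of the 3 C arrays. Nerve and Schwann cell markers were higher on all 3 SKM-KO arrays, fat cell markers on SKM-KO 2, and liver plasma proteins were highest on C 2.

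Stress pathways split in both directions. The unfolded protein and integrated stress list was positive in 17 of 27 and negative in 10, with a median of 0.04 that ran from -0.01 without C 1 to 0.09 without SKM-KO 1. Trib3, a pseudokinase induced by ATF4, read 5.57, 5.72 and 5.70 in C and 5.29, 5.51 and 5.44 in SKM-KO, a difference of -0.26 (SE 0.08). It was the 1 member at p below 0.05. Dnajb9, a chaperone of the endoplasmic reticulum, stood at 0.23, or 0.13 without C 1. Chaperones gave 12 of 22 positive and oxidative stress genes 11 of 22, each with 0 at p below 0.05. In the latter list Nnt, which makes mitochondrial NADPH, stood at 0.54, or 0.09 without C 1, where it read 9.03 against 10.29 to 10.58 on the other arrays. Targets of p53 were positive in 11 of 18, led by Sesn1, Cdkn1a at 0.38 (0.13 without C 1) and Trp53inp1, with 0 at p below 0.05.

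Interferon response and MHC class I genes were positive in 6 of 20 and negative in 14, with a median of -0.06 that ran from -0.12 without C 3 to 0.00 without C 1. Gbp7, an interferon-induced GTPase, read 7.37, 7.32 and 7.14 in C and 7.14, 7.04 and 6.95 in SKM-KO. Its difference of -0.23 (SE 0.09) was the 1 at p below 0.05, with groups meeting at C 3 and SKM-KO 1. Immediate early genes were positive in 15 of 22 with a median of 0.06, or 0.0042 without SKM-KO 1, 0.0061 without C 3 and 0.15 without C 2. Clock genes were positive in 8 of 18, with a median of -0.01 (-0.06 to 0.04 with 1 array left out), and neither list had a member at p below 0.05. Cytosolic ribosomal proteins were positive in 31 of 39 and negative in 8, with a median of 0.02 that was -0.0020 under median centring. Rpl3 read 10.02, 10.13 and 10.10 in C and 10.27, 10.25 and 10.28 in SKM-KO, a difference of 0.18 (SE 0.06).

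**Figure D5:**
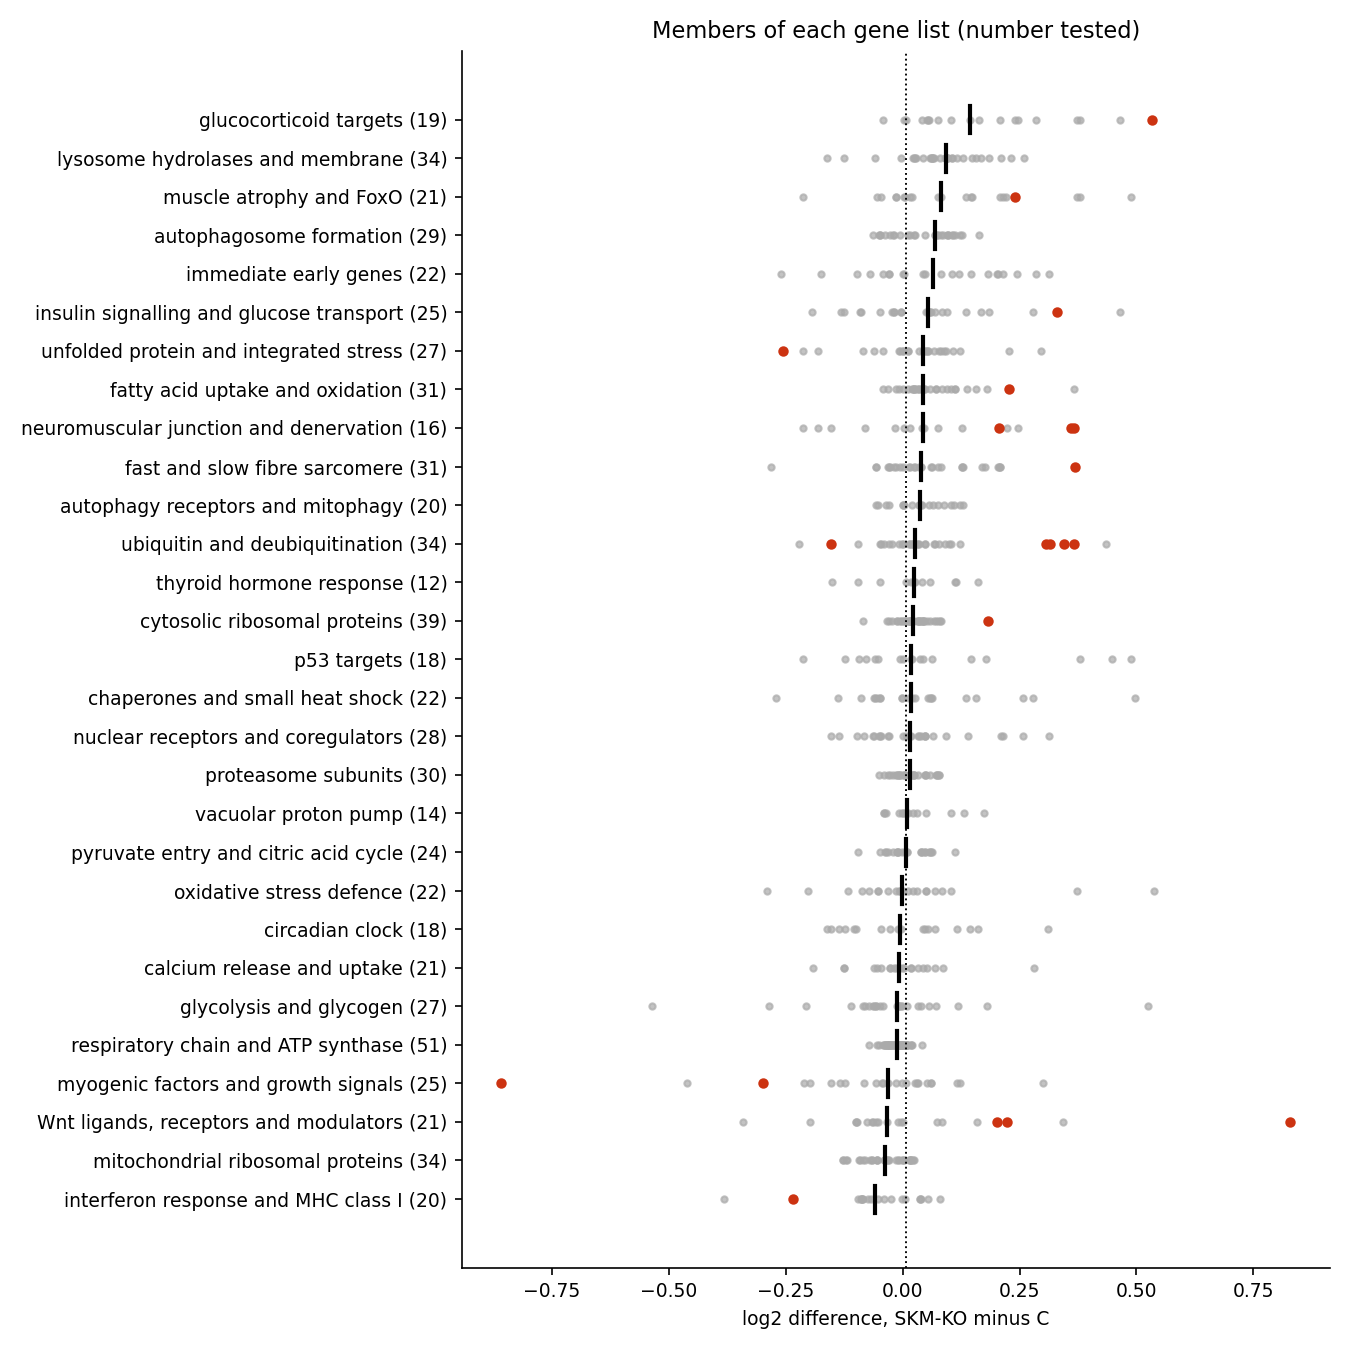
Log2 difference (SKM-KO minus C) of every tested member of the 29 gene lists, with the list median as a black bar, members at an unadjusted p below 0.05 in red and the median of all genes as a dotted line. The medians run from -0.06 for the interferon list to 0.14 for the glucocorticoid targets, and single members reach -0.86 and 0.83.

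Markers of the other cell types differed little. Endothelial markers were positive in 3 of 12 and negative in 9, with a median of -0.06, or 0.0044 without C 2 and -0.02 without SKM-KO 1. Fibroblast and matrix markers were positive in 12 of 15 and negative in 3, with a median of 0.07, or -0.03 without SKM-KO 3, 0.0034 without C 3 and 0.16 without C 1. Smooth muscle and pericyte markers gave 4 of 9 positive. Of the few erythrocyte markers, Alas2, the first enzyme of haem synthesis in red cells, stood at 0.20 (SE 0.07). Satellite cell, lymphocyte, and neutrophil and mast cell markers were mostly below the filter, with 3, 2 and 2 tested and 0 at p below 0.05.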

How the data were processed

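RNA from quadriceps muscle was amplified isothermally from 25 ng of total RNA and hybridised to arrays with 1 biotin label, per the labels' protocols. The deposited table holds log2 signals of 45141 probe sets, which the authors made with RMA, per the submitters' processing notes; its version, and any scan date or batch, is not given in the sources used here. Array medians of the 6 arrays were 4.87 to 4.94. After 104 control probe sets were set aside, 28898 probe sets had 1 gene symbol, 551 several and 15588 none. Each of 17097 genes took its brightest probe set by the mean over 13 arrays, and 10411 genes with a mean of at least 4.90, the median over probe sets, were tested.

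SKM-KO and C were fitted alone in limma 3.58.1 under R 4.3.3 with eBayes (4 residual and 3.15 prior degrees of freedom), two-sided, with Benjamini-Hochberg adjustment over the 10411 genes and a threshold of 0.05. The fit was tested on simulated data. Named genes were Trp53inp2, Trp53inp1, genes past the threshold, filled to 15 per direction by the smallest p, and up to 4 members of each list by p; not all of the latter are printed, and other genes are marked as chosen after their values were seen or given for their size. Of 957 symbols on 29 gene and 12 marker lists, 780 were tested. The comparison, its members and the lists were chosen with earlier results of these data known. Sequences are from RefSeq on GRCm38.p6. Alternatives were median centring, quantile normalization, 3 other filters, the mean of probe sets, all probe sets, trend and robust eBayes, array weights, a fit of all 13 arrays, and each array left out. P-values measure the spread between arrays of 3 animals per group.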

Additional observations from a re-analysis of the deposited data

Results flagged for a closer look

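The 4 SKM-Tg arrays were checked for a lone value at the 31 genes named by the rule, and 2 showed one, where chance gives about 1 in 20. Thap8 had 1 SKM-Tg array at 5.39, far from the other 3. Pop1 had 1 SKM-Tg array at 6.12, likewise far from the rest of its group. These arrays enter no fit of SKM-KO against C, and groups of 3 arrays were not checked in this way.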

How the results depend on the processing

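The call of Trp53inp2 held under every alternative run, and its difference with 1 array left out ran from -2.45 to -2.24. Genes called lower stayed at 1 under each, and genes called higher at 0, except with the mean of probe sets, which called 1 (Wdfy1). Genes lower at an unadjusted p below 0.05 (97 in all) numbered 160 with median centring, 183 with quantile normalization, 215 without a filter, 45 with the filter at the 75th percentile, 209 with array quality weights, 30 with all 13 arrays in the fit and 540 over all probe sets. Genes higher (188) numbered 374 with array quality weights, 28 with all 13 arrays in the fit and 722 over all probe sets. With 1 array left out, genes higher ran from 123 to 329 and genes lower from 88 to 247. Genes with SKM-KO below C without overlap (295) numbered 538 with median centring, 529 with quantile normalization, 560 without a filter and 165 with the filter at the 75th percentile, and genes above (485) numbered 311 with that filter. Without a filter or over all probe sets more were tested, and with the stricter filter fewer; the cause of the other shifts was not tested. Of the 29 list medians, 12 kept their sign in all settings and 17 did not. Among the marker lists, the plasma protein median became 0.12 with the filter at the 75th percentile, which left Trf (0.12) alone. Signs of genes named turned for Meg3 (range with 1 array left out -0.17 to 0.029), Adipoq (-0.61 to 1.25) and Scd1, a desaturase of fat cells (-0.66 to 1.17). No paired analysis was possible because the groups share no number or pairing label. Each title holds an animal number of its own, some adjacent across groups, and no label says what adjacency marks, so it was not used as a pairing.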
